A study of Mus musculus with 2 samples.

Results

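The Janus kinases Jak1, Jak2, Jak3 and Tyk2 and the feedback inhibitors Cish, Socs1, Socs2, Socs3, Socs5 and Socs6 were compared in regulatory T cells (Treg) of 2 Stat3 genotypes. Every probe set that the platform annotation pairs with exactly 1 of these symbols was taken, which gave 24 probe sets for 10 genes, out of 34958 probe sets for 18194 genes with a single symbol. A further 2 probe sets list Jak3 together with Insl3 and were left out by that rule. The data were 1 array of Treg labelled Foxp3 Cre/wtS Stat3 fl/fl, in which Cre acts on both floxed Stat3 alleles, and 1 array labelled Foxp3 Cre/wtS Stat3 fl/wt, in which it acts on the only floxed one. The donors were female mice aged 6 to 8 weeks, and T cells were sorted from spleen and lymph nodes. Both genotypes therefore carried Cre at Foxp3, a gene on the X chromosome that drives Cre in Treg. For the fl/fl donors, the series' design text gives Foxp3 Cre/wt where the sample label gives Cre/wtS. In a female with 1 Cre allele, Treg that use the other X do not express Cre. The sources used here state neither whether the sort kept only Cre-expressing cells nor how many mice gave each sample. A single array stands for each genotype, so no replicate spread can be given and the values below are a description of these arrays, with no test.

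Janus kinases are tyrosine kinases bound to the inner part of cytokine receptors. When a cytokine joins the receptor chains, the kinases phosphorylate each other and the receptor, and Stat factors dock there, are phosphorylated and move to the nucleus. Among the genes that Stat factors induce are Cish and several Socs genes, whose products bind the receptor or the kinase through an SH2 domain, and recruit a ubiquitin ligase through a Socs box. In Treg, IL-2 acts through Jak1, Jak3 and Stat5, while IL-6 and IL-10 act largely through Stat3, with Socs3 as the classical brake on the IL-6 receptor chain gp130.

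Because Cish and Socs3 are textbook targets of Stat factors, the parts of their promoter windows that hold the Stat motif TTCNNNGAA are shown, with the motif in capitals. The sequences are from RefSeq, build GRCm38.p6. The Cish stretch is the first 30 bases after the annotated start on the plus strand (chr9:107296659-107296688), and the Socs3 stretch is the 250 bases before the start on the minus strand (chr11:117969367-117969616).
Cish: TTCCTGGAAagTTCTTGGAAatctgtcaaa
Socs3: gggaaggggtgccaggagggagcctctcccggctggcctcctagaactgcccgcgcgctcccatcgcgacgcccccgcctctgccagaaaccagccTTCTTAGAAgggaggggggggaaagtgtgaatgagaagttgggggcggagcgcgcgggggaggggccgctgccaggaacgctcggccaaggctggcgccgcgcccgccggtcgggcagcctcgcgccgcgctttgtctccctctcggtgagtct

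Windows of 300 bases, 250 before and 50 after the annotated start, were on hand for 7 of the 10 genes: Jak1, Jak2, Jak3, Tyk2, Cish, Socs1 and Socs3. The motif reads the same on both strands. Cish held 2 matches, TTCCTGGAA at bases 1 to 9 and TTCTTGGAA at bases 12 to 20 after the start. Socs3 held 1 match, TTCTTAGAA, at -154 to -146. The windows of Jak1, Jak2, Jak3, Tyk2 and Socs1 held no such letters. Of all 32851 windows in the table, 8.3% held the motif and 0.457% held it at least 2 times. A match is a run of letters and not a measured binding site.

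Of the 24 probe sets, 19 reached log2 5 in both arrays and 1, that of Socs1, in the fl/wt array only. The other 4 lay under log2 5 in both, where background-subtracted values have no reliable order; 3 of these read Socs2 and 1 reads Socs6. Each of the 10 genes had at least 1 probe set that passed. Levels are on the log2 scale of the deposited values. Probe sets bind with different strength, so a level is set only against the same probe set in the other array, and ranks within an array do not order RNA amounts of different genes. In bulk samples, fewer cells of a type and less RNA per cell cannot be told apart.

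**Figure D1:**
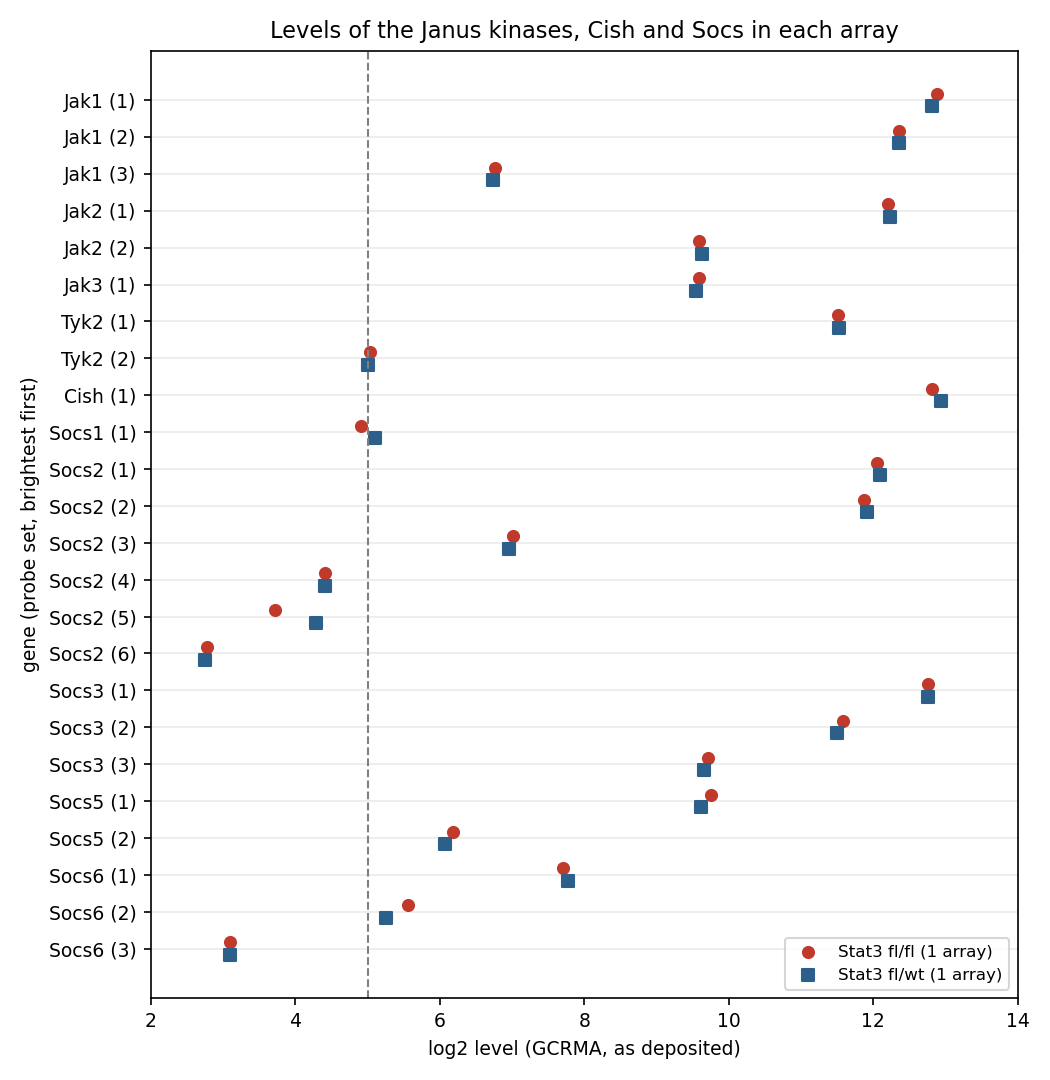
Log2 level (horizontal axis) of each of the 24 member probe sets (rows, brightest of a gene first) in the fl/fl array (circles) and the fl/wt array (squares), 1 array each; the dashed line marks log2 5. Circles and squares nearly coincide for most probe sets, such as 12.76 and 12.76 for the brightest of Socs3. They lie furthest apart for the fifth of Socs2, which is dim (3.71 and 4.28).

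No member reached a 1.5-fold difference in either direction, the size used here as a call. This held for all 10 genes, each read by its brightest probe set, against 0.645% of all 9774 genes measured that were called. It also held for all 20 probe sets that passed, against 0.78% of all 19748. At 2-fold the background was 0.0512% of genes. With backgrounds this low, a count of 0 among 10 genes is no result about the members. Between the arrays, the 19 probe sets at log2 5 or more in both had ratios of fl/fl over fl/wt from 0.919 to 1.22.

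The kinases were near equal in the 2 arrays. All 8 of their probe sets reached log2 5 in both arrays, and their differences ran from -0.041 to 0.072. Jak1, which serves nearly all Stat3-activating receptors and the IL-2 receptor, was bright in both. Its first probe set read 12.89 in fl/fl and 12.82 in fl/wt, a difference of 0.072. The second read 12.35 in fl/fl and 12.35 in fl/wt, a difference of 0.0043, and the third, far dimmer, 6.76 in fl/fl and 6.74 in fl/wt, a difference of 0.026. All 3 were thus higher in fl/fl, and their differences lay up to 0.068 apart. The brightest ranked 1737th of 45101 probe sets in fl/fl and 1832nd in fl/wt.

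Jak2 and Tyk2 pair with Jak1 at gp130, interferon and IL-10 receptors, and Jak2 acts alone at receptors such as that for erythropoietin. The brighter Jak2 probe set read 12.20 in fl/fl and 12.23 in fl/wt, a difference of -0.026. The other read 9.58 in fl/fl and 9.62 in fl/wt, a difference of -0.041. Both Jak2 readings were lower in fl/fl. Tyk2 read 11.51 in fl/fl and 11.53 in fl/wt, a difference of -0.020. Its second probe set lay at the edge of the measured range, at 5.03 in fl/fl and 5.01 in fl/wt, and differed the other way by 0.018.

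Jak3 binds the common gamma chain of the IL-2, IL-4, IL-7, IL-15 and IL-21 receptors and is largely restricted to blood cells. It was read by a single probe set of its own, at 9.58 in fl/fl and 9.55 in fl/wt, a difference of 0.035. For Jak1 and Jak3, which act together at the IL-2 receptor, the probe sets read here were all higher in fl/fl, by 0.0043 to 0.072. All lay inside the range of probe sets of like level, given below. The probe sets shared with Insl3 were not read.

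The inhibitors ran wider than the kinases at the extremes, from -0.12 to 0.29 over 12 probe sets that passed, of 16. The 0.29 came from a dim Socs6 probe set, at 5.55 in fl/fl and 5.26 in fl/wt. Dim probe sets differ more between these arrays, as given below, so the wider range is not read as a trait of the inhibitors. Cish, which Stat5 induces and which dampens IL-2 receptor signalling, read 12.81 in fl/fl and 12.93 in fl/wt. That is a difference of -0.12 and a ratio of 0.919, and its rank was 1829th in fl/fl and 1688th in fl/wt. Cish had 1 probe set, so no second reading of it was at hand.

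To show how far probe sets of like level differ between these arrays, the central 95% of all differences was taken in each log2 unit of level. Between log2 12 and 13 it ran from -0.11 to 0.11 over 1505 probe sets, with lower and upper ends of -0.109 and 0.113. Cish, at -0.122, lay outside it, and the other 18 of the 19 member probe sets lay inside theirs. A share of 5.26% outside is close to the 5% that lies outside for all probe sets by construction.

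**Figure D2:**
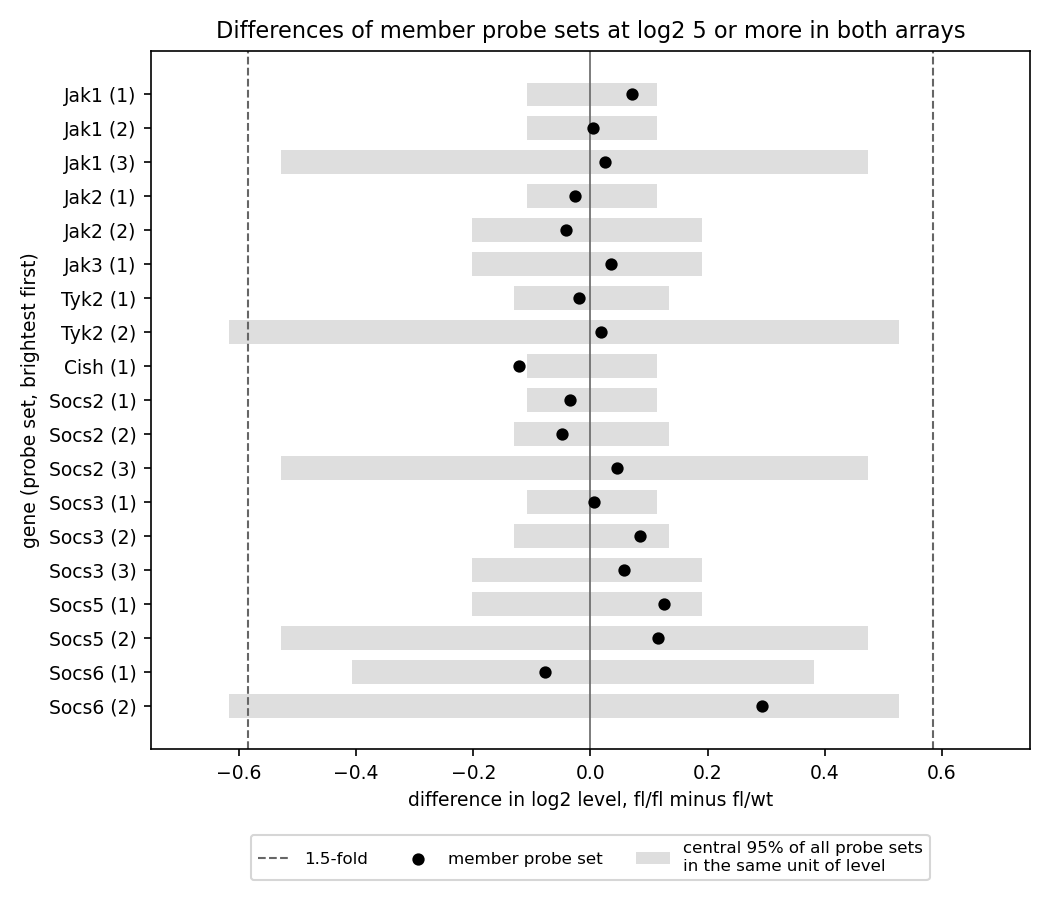
Difference in log2 level, fl/fl minus fl/wt (points), of the 19 member probe sets at log2 5 or more in both arrays, 1 array per genotype. Grey bars give the central 95% of all probe sets in the same log2 unit and dashed lines 1.5-fold; the point of Cish (-0.12) is the one outside its bar, and the widest bars belong to dim probe sets.

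Socs1 blocks the kinase activity of Jak1, Jak2 and Tyk2 directly and is needed for stable Treg in mice. Its only probe set stood at the limit of measurement, at 4.90 in fl/fl and 5.11 in fl/wt. With values under log2 5 set to 5, it was at least 1.08-fold lower in fl/fl. For dim probe sets, between log2 5 and 6, the central 95% of differences was far wider, from -0.62 to 0.53.

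Socs3 was bright in both arrays, and all 3 of its probe sets were slightly higher in fl/fl, the array in which both Stat3 alleles are floxed. The brightest read 12.76 in fl/fl and 12.76 in fl/wt, a difference of 0.0063. The second read 11.58 in fl/fl and 11.49 in fl/wt, a difference of 0.085. The third, the only one without a suffix for shared or cross-reacting probes, read 9.71 in fl/fl and 9.66 in fl/wt, a difference of 0.057. The brightest ranked 1896th in fl/fl and 1916th in fl/wt. Socs3 is also expressed by macrophages, and 5 of 7 myeloid markers were measured in these arrays, with differences from -0.071 to 0.053; Itgam and Mpo were under log2 5 in both. Csf1r, a macrophage receptor and the brightest of them, read 14.0 in fl/fl and 13.99 in fl/wt. The part of such cells in the Socs3 level was not tested.

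Socs2, best known as the brake on growth hormone signalling and also induced by Stat5, had the most probe sets. The brightest read 12.06 in fl/fl and 12.09 in fl/wt, a difference of -0.035. The next read 11.87 in fl/fl and 11.92 in fl/wt, a difference of -0.049. The third went the other way, at 7.01 in fl/fl and 6.96 in fl/wt, a difference of 0.045. The bright readings, which share the same source transcript in the annotation, were thus lower in fl/fl and the dim one higher. The remaining 3, under log2 5 in both arrays, read 4.41, 3.71 and 2.77 in fl/fl and 4.40, 4.28 and 2.74 in fl/wt.

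Socs5, reported to restrain IL-4 and EGF receptor signalling, was the gene with the largest positive difference among the members. It read 9.75 in fl/fl and 9.62 in fl/wt, a difference of 0.13, and its dimmer probe set 6.18 in fl/fl and 6.07 in fl/wt, a difference of 0.12. The 2 readings of Socs5 lay within 0.010 of each other. Socs6, an adaptor of the family linked to receptor tyrosine kinases, gave readings of opposite sign. Its brightest probe set read 7.70 in fl/fl and 7.78 in fl/wt, a difference of -0.078. The next read 5.55 in fl/fl and 5.26 in fl/wt, a difference of 0.29, the largest of any member probe set in size among those at log2 5 or more in both arrays. The last lay at 3.10 in fl/fl and 3.09 in fl/wt. The first 2 readings of Socs6 lay 0.37 apart, the widest spread within a member, and its sign depends on which is used.

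Over the 7 members with more than 1 probe set at log2 5 or more in both arrays, the readings of Jak1, Jak2, Socs3 and Socs5 had the same sign and those of Tyk2, Socs2 and Socs6 did not. With 2 such probe sets, 2 of 4 members matched in sign, against 49.8% of all 2585 genes with 2. With 3, 2 of 3 members matched, against 26.1% of 1023 genes. Over all genes, signs thus matched about as often as independent random signs would. A match in sign among the members therefore lends no weight to its direction. Probe sets of a gene share the sample and the array, so they are repeat readings of 1 RNA and not replicates. Over 4228 genes, the spread between the 2 brightest probe sets of a gene had an SD of 0.123 per reading. Among the 9 member genes at log2 5 or more in both arrays, Socs5, at 0.126, exceeded that SD in size at its brightest probe set, and Cish, at -0.122, came just under it. That SD pools genes of all levels, although the differences narrow as level rises, so it does not order these genes. Against probe sets of like level, Socs5 lay inside the central 95% (-0.20 to 0.19) and Cish outside its own (-0.109 to 0.113). Socs1 is not placed against the SD: its difference was -0.206 as deposited and, as a bound with log2 5 as the floor, -0.108.

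By size, the members resembled all genes. Their median absolute difference was 0.053 over genes, against 0.053 for all 9774 genes, and 0.047 over probe sets, against 0.059 for all. A difference of at least 0.1 on the log2 scale was seen for 3 of 10 member genes, against 26.8% of all genes; these were Cish, Socs1 and Socs5. Over probe sets it was 5 of 20, against 31.8%. By sign, 4 genes were higher and 6 lower in fl/fl, against 47.5% higher and 52.5% lower over all genes, with a median difference of -0.023 (0.018 without probe sets of shared suffix) against -0.0045. The median was 0.0073 over the kinases, 2 of them higher and 2 lower, and -0.056 over the inhibitors, 2 of them higher and 4 lower. Ranks moved by 4 to 452 places of 45101 over the 19 probe sets measured in both arrays, with a median of 95.

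**Figure D3:**
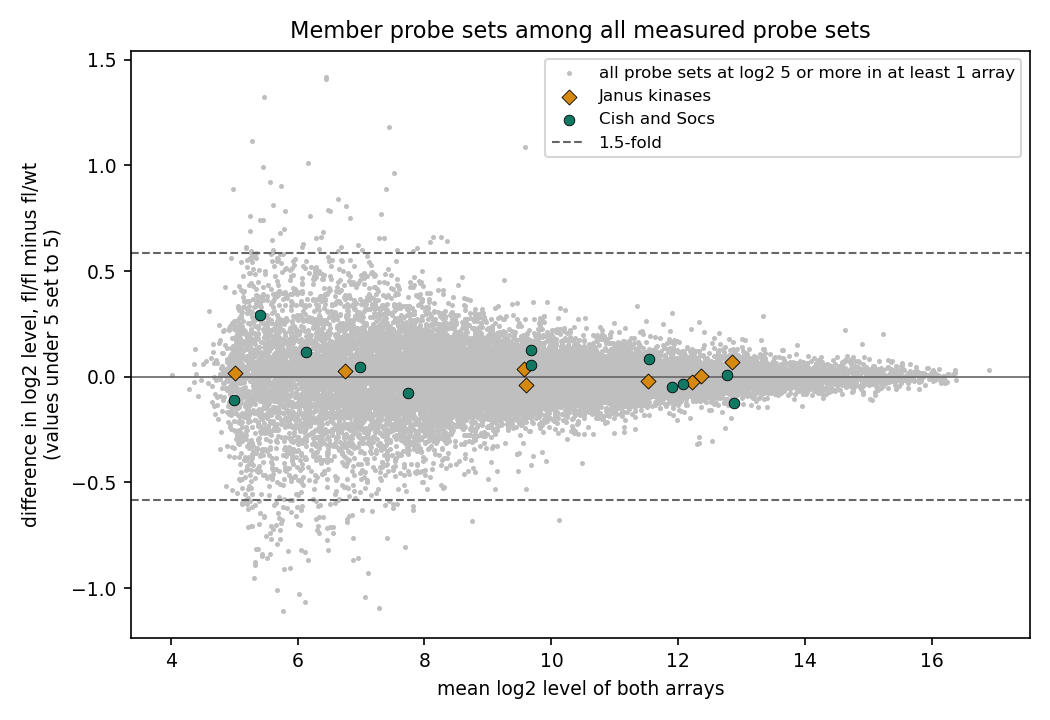
Difference in log2 level, fl/fl minus fl/wt (vertical axis; values under 5 set to 5) against the mean log2 level of both arrays, 1 per genotype, for all 19748 probe sets at log2 5 or more in at least 1 array (grey), with the kinases (diamonds) and the inhibitors (circles) on top. All 20 member probe sets lie between the dashed lines at 1.5-fold, inside the grey cloud.

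The genes around the members in the pathway were taken from 7 lists with 68 entries, of which 63 had a probe set of their own and 57 were measured; the entries without one were not analysed here. Of the 57, 21 were higher and 36 lower in fl/fl, against 47.5% higher and 52.5% lower over all genes. The median difference of the 57 was -0.024, against -0.0045 for all genes. At 1.5-fold, 1 of the 57 was called, against 0.645% of all 9774 genes measured. A single call at such a background is no result about the lists. The gene called was Epor, the erythropoietin receptor, which signals through Jak2. It read 6.52 in fl/fl and 7.38 in fl/wt, a difference of -0.86, while Jak2 itself differed by -0.026. Its list, receptors with a homodimer or the beta common chain that use Jak2, had 4 measured members, all lower, with a median of -0.097. That median was -0.31 with the median of probe sets and -0.047 with no filter or floor. The others were Csf2ra (-0.10) and Csf2rb (-0.092), chains of the GM-CSF receptor, and Il3ra (-0.0014).

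Among the Stat factors, which the kinases phosphorylate, the median was -0.023 (-0.014 with the median of probe sets), with 2 higher and 4 lower. Stat2 (0.21) and Stat5a (0.13) were on the higher side, and Stat5b (-0.077) and Stat6 (-0.043) on the lower. Receptors with the common gamma chain, which use Jak1 and Jak3, had a median of -0.011, with 3 higher and 3 lower, and of 0.0012 with no filter or floor or without suffixed probe sets. Il15ra differed by 0.093 and Il21r by 0.077, and Il2ra by -0.10 and Il4ra by -0.024. Receptors of the gp130, IL-10, IL-12 and interferon groups, which use Jak1, Jak2 and Tyk2, had a median of -0.046, with 3 higher and 7 lower. Its sign turned with the median of probe sets (0.0038), and it was -0.0079 with no filter or floor. Il6ra (0.10) and Ifngr1 (0.070) were the highest and Ifnar1 (-0.17) and Ifngr2 (-0.13) the lowest.

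Other brakes on the pathway, among them phosphatases and Pias proteins, had a median of -0.0027, with 7 higher and 7 lower, which turned sign with quantile normalisation (0.0021) and loess (0.00056). Socs4, the relative of Socs5, differed by 0.12 and Pias1 by 0.096, and Pias4 by -0.13 and Sh2b3, an adaptor that restrains Jak2, by -0.080. Of the 5 genes listed as partners in the ligase that a Socs box recruits, 3 were higher and 2 lower. These were Elob, Eloc, Cul5, Rnf7 and Rbx1, and their median of 0.0060 was the value of Rbx1. Rnf7, the RING protein of that ligase, read 12.37 in fl/fl and 12.24 in fl/wt, a difference of 0.12, and the adaptor Eloc differed by 0.0073. The scaffold Cul5 read 8.98 in fl/fl and 9.31 in fl/wt, a difference of -0.33, and the adaptor Elob differed by -0.066. Cytokine-induced targets had a median of -0.059, with 3 higher and 9 lower. It was -0.024 with the median of probe sets and -0.025 without suffixed probe sets. Osm (0.11) and Bcl3 (0.070) were the highest and Fosl2 (-0.29) and Ier3 (-0.17) the lowest. Differences widen at low level here too. Stat2, Ifngr2 and Fosl2 had mean levels between log2 6 and 7 and lay inside the central 95% there (-0.53 to 0.47). Of the genes named from the lists, Epor, Il2ra, Cul5 and Rnf7 lay outside the central 95% of their own unit. By construction, 5% of all probe sets lie outside, and no test is drawn from this. These lists are read against the same background as the members, 0.645% of genes called, and their main medians against -0.0045 for all genes. List medians under other settings have other backgrounds. The median of all genes was 0.013 with no filter or floor and 0 with the median of probe sets. It was -0.0010 with quantile normalisation and -0.0021 with loess.

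**Figure D4:**
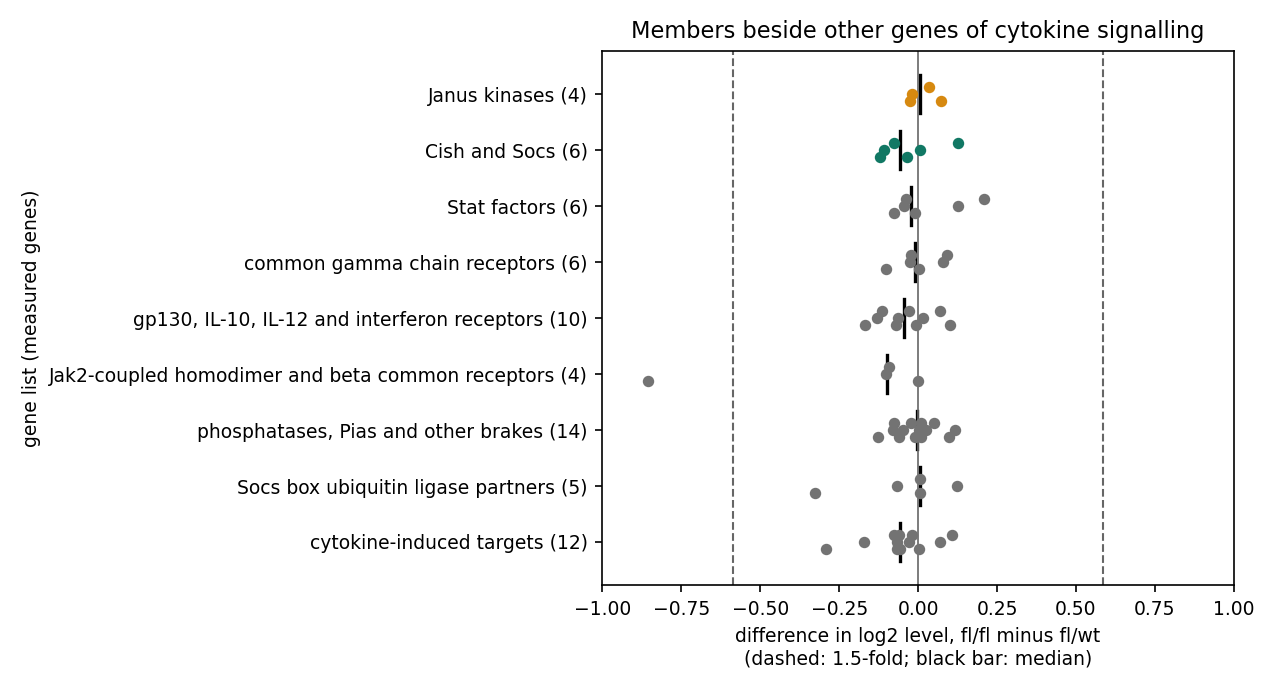
Difference in log2 level, fl/fl minus fl/wt, of each measured gene (points, brightest probe set, 1 array per genotype) in the 2 member families and 7 lists of other genes in cytokine signalling, with the list median as a black bar and 1.5-fold as dashed lines. Epor, at -0.86, is the one gene past a dashed line, and the member families spread no wider than -0.12 to 0.13.

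The labels were checked on the targeted gene and on markers. The 3 Stat3 probe sets above log2 5 read 11.99, 10.63 and 10.37 in fl/fl and 12.00, 10.65 and 10.45 in fl/wt, and the fourth was under log2 5 in both. Their position against the deleted exons is unknown here, so they do not check the genotype, and every direction above rests on the labels. Of 11 Treg markers, 9 were measured, 4 higher and 5 lower in fl/fl, by -0.10 to 0.096; Ctla4 read 14.87 in fl/fl and 14.91 in fl/wt, and Ikzf2 13.86 in fl/fl and 13.88 in fl/wt. The only Foxp3 probe set was under log2 5, at 3.52 in fl/fl and 4.09 in fl/wt. Of 7 T cell markers 6 were measured, 3 higher and 3 lower, by -0.061 to 0.088; the brightest, Cd5, read 14.31 in fl/fl and 14.28 in fl/wt. Of 7 B cell markers 5 were measured, 1 higher and 4 lower, by -0.34 to 0.16 with a median of -0.13; the brightest, Cd79b, read 10.26 in fl/fl and 10.34 in fl/wt. Of 7 CD8 and NK markers 5 were measured, 2 higher and 3 lower, by -0.062 to 0.27; the brightest, Nkg7, read 10.59 in fl/fl and 10.65 in fl/wt. Of 7 myeloid markers 5 were measured, 2 higher and 3 lower, by -0.071 to 0.053. Csf1r, Cd68, Lyz2, Adgre1 and Cd14 read 14.00, 12.62, 12.52, 12.09 and 10.51 in fl/fl. In fl/wt they read 13.99, 12.67, 12.59, 12.04 and 10.56. These 5 myeloid transcripts were thus bright in both arrays, while Itgam (2.37 in fl/fl and 2.36 in fl/wt) and Mpo (2.05 and 2.04) were under log2 5. Of 5 dendritic cell markers only Itgax was measured, at 7.01 in fl/fl and 6.81 in fl/wt. Of 6 red cell and platelet markers 2 were measured: Alas2 read 5.97 in fl/fl and 6.26 in fl/wt, and Pf4 read 5.99 in fl/fl and 5.80 in fl/wt. The part of such cells in the members' levels was not tested.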

How the data were processed

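RNA of sorted Treg was hybridised as biotin-labelled cRNA, per the labels' protocols, to 1 Affymetrix array per genotype. The authors deposited log2 values for 45101 probe sets; GCRMA is the method named in the submitters' processing notes, without version, settings or the set of arrays normalised together. The log2 scale was read from the values (0.53 to 16.9, medians 3.50 in fl/fl and 3.47 in fl/wt). GCRMA subtracts a sequence-based background, which packs dim probe sets at the low end.

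The platform annotation gave the gene names (34958 with 1 symbol, 932 with several, 9211 with none, controls included); 34754 matched the RefSeq table of GRCm38.p6 by Entrez identifier. With Python 3.11.15 and pandas 2.3.3, differences were taken as fl/fl minus fl/wt over probe sets at log2 5 or more in at least 1 array, with lower values set to 5. A gene was read by its brightest probe set. All member probe sets are named; of each pathway list, genes past 1.5-fold and otherwise the 2 highest and 2 lowest. No genes were ranked by likeness of pattern, since 2 arrays give 1 difference per gene. The number of arrays limits the precision. Counting was tested on simulated data, with 2-fold shifts in genes well above the floor. That run covered neither dim probe sets nor smaller shifts. Members and lists were chosen with earlier results of these data known.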

Additional observations from a re-analysis of the deposited data

How the results depend on the processing

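The settings tried were floors of log2 4, log2 6 and none, 32 added on the linear scale, the median of a gene's probe sets, probe sets without shared suffixes, centring, quantile normalisation and loess. The counts of members past 1.5-fold and 2-fold were 0 under each. The median of all genes ran from -0.0047 with a floor of log2 6 to 0.013 with no filter or floor. A lower fold threshold also gave 0. The members' median difference ran from -0.023 to 0.018, the one value above 0 being that without suffixed probe sets. Over 9 settings each, Jak1 ran from 0.026 to 0.075, Jak2 from -0.034 to -0.019, Tyk2 from -0.023 to -0.00081, Cish from -0.122 to -0.117, Socs2 from -0.049 to 0, Socs3 from 0.0062 to 0.057, Socs5 from 0.121 to 0.133 and Socs6 from -0.081 to 0.29. Jak3 ran from 0.033 to 0.043 over 8 settings, with no value without suffixed probe sets, and Socs1 from -0.21 to -0.10 over 7, with none there or with a floor of log2 6. The sign of 1 member turned: without suffixed probe sets Socs6 was read by its dimmer probe set, at 0.29. As the median of probe sets, the list of Jak2-coupled receptors had a median of -0.31, and that of gp130, IL-10, IL-12 and interferon receptors 0.0038. With no filter or floor the second of these was -0.0079, by construction over more genes. No paired analysis was possible because each genotype has 1 array. Low signal limits Socs1, the second Tyk2 reading and the dim Socs2 and Socs6 readings.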
